A study of Mus musculus with 8 samples.

Results

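The genes described here encode the potassium channels and the voltage-gated sodium and calcium channels. They were chosen by name, as the protein-coding rows of the deposited tables whose symbol begins with Kcn, begins with Cacn, or is Scn followed by a number and a or b. The rule gave 134 of the 55471 rows, made up of 94 Kcn, 14 Scn and 26 Cacn genes in 13 subfamilies. The study captured the long noncoding RNA Lhx1os from mouse motor neurons with antisense oligonucleotide probes of 20 nt carrying biotin and sequenced the RNA that came with it. Motor neurons were differentiated from the embryonic stem cell line HBG3, which carries the HB9::GFP reporter (green fluorescent protein under the promoter of the motor neuron gene Hb9), and were grown for 3 days after plating with BDNF, CNTF and GDNF. All 4 groups came from these cells and held 2 libraries each. The study's design names 2 independent experiments and the labels give each library's replicate number as its batch, so libraries of the same number are taken here as 1 experiment, and whether they came from the same culture is not stated. ODD and EVEN were pull-downs with separate probe sets against all Lhx1os isoforms, LacZ was the pull-down with probes against a bacterial mRNA as negative control, and Input was the RNA that each pull-down was compared with. The labels name 1 stem cell line and do not mention sorting on the reporter.

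Each of these channels is built around a pore-forming protein, and most carry accessory subunits that set how the pore opens and where it sits in the membrane. In neurons the sodium channel alpha subunits carry the upstroke of the action potential. Voltage-gated potassium channels end it, inward rectifier and two-pore potassium channels hold the resting potential, and potassium channels opened by calcium or sodium shape the pause between spikes. Calcium channels, with a pore-forming alpha1 subunit and alpha2delta and beta subunits, admit calcium for transmitter release and gene regulation. Most proteins named calcium channel gamma subunits are better known as TARPs, which bind AMPA-type glutamate receptors and bring them to synapses.

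Libraries held 7632775 to 24628435 counts, with Input the deepest, and counting error is therefore larger in the pull-downs. Lhx1os was at 2.27 and 2.97 CPM (counts scaled to library size) in Input and 2.06 and 2.44 in LacZ, against 180 and 35.7 (ODD) and 150 and 25.4 (EVEN), where the first value of each pair is experiment 1. The target was thus above both LacZ and both Input libraries in all 4 libraries of its own probes. Of 7 motor neuron marker genes, 6 had a mean over 1 in Input in FPKM (counts scaled to gene length and library size, which allows genes of different length to be compared). Of 6 muscle markers and 3 markers of pluripotent cells 0 did, while 3 of 3 oligodendrocyte, 3 of 4 neural progenitor and 5 of 6 spinal interneuron markers did. So did 3 of 3 mesenchyme markers and 1 of 3 astrocyte markers. The summed FPKM of the oligodendrocyte markers was 133 and 24.6 in the Input libraries of experiments 1 and 2, that of the progenitor markers was 429 and 278, and that of the motor neuron markers 60.1 and 111. The Input libraries of the 2 experiments thus differed in these markers, and values are given by experiment throughout.

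Features of sequence of 2 kinds bear on a capture by hybridisation, namely stretches shared with Lhx1os and stretches of simple, repetitive sequence, and the members that carry most of either are shown here. In the longest transcript of each gene, the longest run of bases complementary to any of the 3 annotated Lhx1os isoforms had a median of 11 nt both for the 98 members that could be tested and for the other protein-coding genes. The run of 20 nt in Kcnh7, a pore of the EAG family, was the longest among the members, and 1.43% of 13450 protein-coding genes had one as long. The sodium channel pore Scn3a was also among the members with a run of at least 15 nt. The longest run on the same strand as Lhx1os, the direction in which a probe against Lhx1os could pair, was 16 nt in the inward rectifier Kcnj12, and 4.10% of protein-coding genes had one as long. Capitals mark the run shared with Lhx1os, complementary in Kcnh7 and Scn3a and on the same strand in Kcnj12, in GENCODE release M21 transcripts on GRCm38. All of these runs lie in the 3' untranslated region.
Kcnh7: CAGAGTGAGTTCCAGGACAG
Scn3a: tcaggGTTTCTTACAGTTTTgtcag
Kcnj12: ctggtGTGGGGACAGTTGGAAttcta

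Simple sequence took up more of the members' transcripts than of other genes' at the median. The program dustmasker marked a median of 3.01% of the longest transcript of the 98 tested members as low in complexity, against 2.06% for other protein-coding genes. Over 9% was marked in 6 members, and in 4.11% of protein-coding genes. The longest marked stretches of 2 members are given in capitals, both of them in coding sequence. They are a GC-rich stretch of the TARP Cacng8 and a run of GAA and GAG triplets in the R-type calcium channel pore Cacna1e.
Cacng8: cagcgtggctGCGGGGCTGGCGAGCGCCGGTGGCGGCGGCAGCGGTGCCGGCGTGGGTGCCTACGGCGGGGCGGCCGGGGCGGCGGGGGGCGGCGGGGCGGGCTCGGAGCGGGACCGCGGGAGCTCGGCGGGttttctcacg
Cacna1e: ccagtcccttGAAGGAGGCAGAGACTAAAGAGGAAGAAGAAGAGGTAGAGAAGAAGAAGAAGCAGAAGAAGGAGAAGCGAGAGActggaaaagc

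In Input, before any capture, a TARP had the highest level of the channel genes. Mean Input FPKM was over 1 for 58 of the 134 genes and over 10 for 8. The highest was Cacng4, a TARP (chr11:107732357-107794557), at 74.7 ± 1.93 FPKM (SD, n = 2), followed by the TARP Cacng7 (chr7:3332955-3368221) at 28.6 ± 0.425 FPKM. Cacnb3, a beta subunit of presynaptic calcium channels, was at 26.6 ± 7.88 FPKM, and Cacna1g, a T-type pore that opens near the resting potential, was at 19.8 ± 5.73 FPKM. The Input libraries of Cacnb3 overlapped those of both Cacng7 and Cacna1g, so its place between them is not resolved. Cacng7 was above Cacna1g in both.

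**Figure D1:**
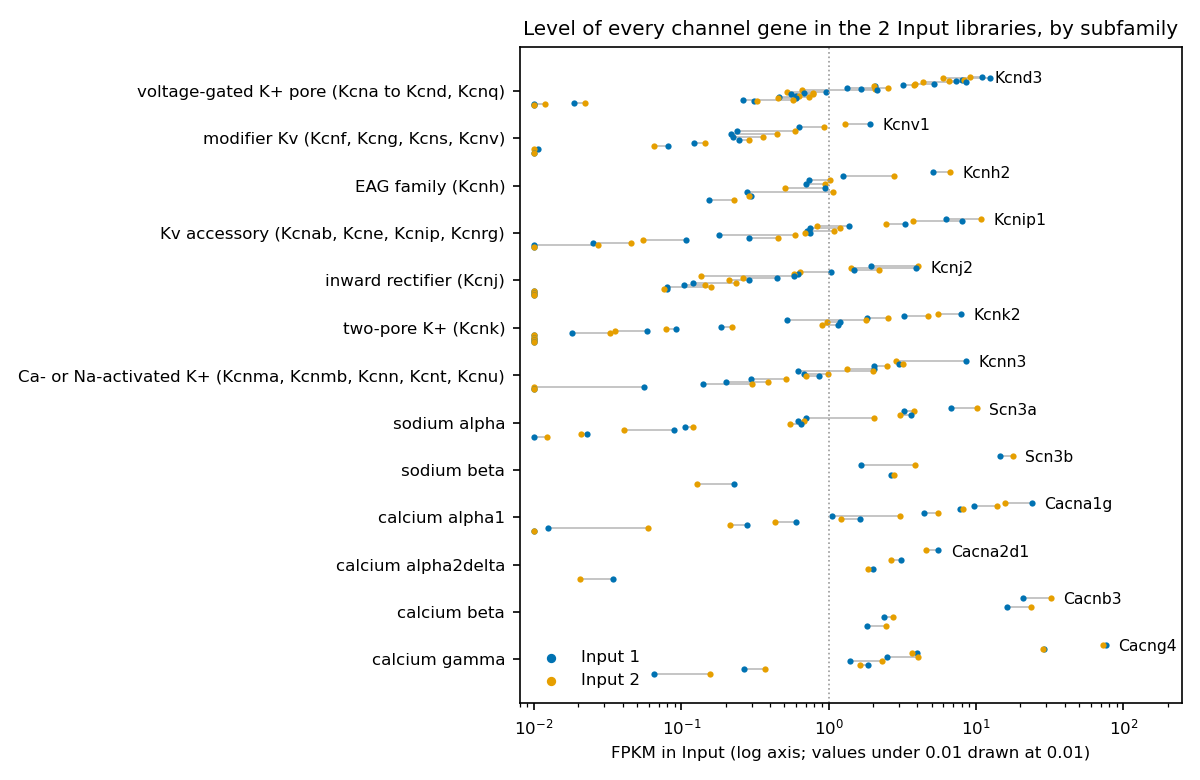
FPKM of all 134 channel genes in the 2 Input libraries (blue and orange points, joined by a line for each gene) on a log axis, by subfamily, with the gene of the highest mean named and a dotted line at 1. Cacng4 stands highest, and most subfamilies hold genes under 0.1 as well as genes over 1.

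Among the sodium channel pores Scn3a, the form best known from the embryonic nervous system, led with 6.74 and 10.1 FPKM in the Input libraries of experiments 1 and 2. Scn8a, the main pore of mature axons, stood at 3.603 and 3.05, and Scn2a, which precedes it in developing axons, at 3.27 and 3.77. Scn1a was at 0.616 and 0.682 and Scn9a, known from peripheral neurons, at 0.696 and 2.03. The muscle form Scn4a and the sensory neuron forms Scn10a and Scn11a did not reach the count needed for a test. Scn3b was the leading beta subunit at 14.5 and 17.7.

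The calcium channel pores of the presynaptic terminal were all measured. Cacna1b, the N-type pore, was at 7.81 and 8.12 FPKM in Input, Cacna1a, the P/Q-type pore, at 4.45 and 5.56, and Cacna1e, the R-type pore, at 1.06 and 3.05. Of the L-type pores, Cacna1c was at 1.62 and 1.21 and Cacna1d at 0.602 and 0.433, both below Cacna1a and Cacna1b in the 2 libraries. The second T-type pore, Cacna1h, was at 9.75 and 13.8. Cacna2d1, the leading alpha2delta subunit, was at 5.54 and 4.61, Cacna2d2 at 3.11 and 2.66 and Cacna2d3 at 1.99 and 1.86.

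Of the voltage-gated potassium channel pores, Kcnd3, an A-type pore that delays firing, had the highest mean, at 11.01 and 9.04 FPKM, and its relative Kcnd2 was at 5.21 and 3.84. Kcnc1, whose fast channel allows high firing rates, was at 12.4 and 5.95, above Kcnd3 in experiment 1 and below it in experiment 2. The delayed rectifier Kcnb2 was at 2.05 and 2.04. Of the M-current pores, which brake repetitive firing, Kcnq3 was at 1.33 and 2.52 and Kcnq5 at 0.597 and 0.456. Of the low-threshold pores of axons, Kcna6 was at 8.56 and 4.38, Kcna2 at 2.13 and 0.659 and Kcna1 at 0.552 and 0.785.

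The other potassium subfamilies each had 1 leading gene. These were Kcnh2, the ERG pore, at 5.14 and 6.69 FPKM, Kcnip1, a calcium-binding partner of the A-type pores, at 6.24 and 10.8, and Kcnk2, a two-pore channel opened by stretch and lipids, at 7.88 and 5.52. Kcnn3, a small-conductance channel opened by calcium, was at 8.51 and 2.86, against 3.02 and 3.18 for the large-conductance channel Kcnma1. Kcnj2, a strong inward rectifier, was at 1.95 and 4.01, and Kcnv1, which has no current of its own and modifies other pores, at 1.903 and 1.296. In bulk libraries such as these, fewer cells that express a gene and less RNA per cell cannot be told apart. At the other end, 7 genes had a count of 0 in all 8 libraries and 8 had at most 1, among them Kcna10, Kcnj1, Kcnj13, Kcnk15 and Kcnk16. A further 28 genes had too few counts for a test (at most 70 over all libraries), which left 98 tested members.

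Across the pull-downs the channel genes as a whole held about the share of counts they had in Input. They made up 0.265% and 0.272% of the counts of the Input libraries, 0.240% and 0.328% with ODD probes, 0.249% and 0.293% with EVEN probes, and 0.243% and 0.332% with LacZ probes. In each pull-down the share was lower than in its Input in experiment 1 and higher in experiment 2. The comparisons with Input share the same 2 Input libraries, so their values are set side by side and are not independent of each other.

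Tested across all 16524 genes with edgeR at an adjusted p under 0.05, 3 of the 98 channel genes passed against Input in any pull-down. Cacng7 was lower in ODD, EVEN and LacZ, and the L-type pore Cacna1c and the alpha2delta subunit Cacna2d3 were higher in LacZ. Of all genes tested, 6.46% were higher and 0.375% lower with ODD probes, 5.37% and 0.284% with EVEN probes, and 6.98% and 0.430% with LacZ probes. Higher genes were mostly noncoding, since 0.535% to 0.557% of protein-coding genes were higher in the 3 pull-downs. The members' counts were 0 higher and 1 lower for ODD, 0 and 1 for EVEN, and 2 and 1 for LacZ, where 1 call of 98 makes 1.02%. At an unadjusted p under 0.05 the members higher were 8 (8.16%), 6 (6.12%) and 8 (8.16%) in ODD, EVEN and LacZ, against 4.12%, 5.46% and 3.5% of protein-coding genes and 13.0%, 13.6% and 13.2% of all genes. Those lower were 6 (6.12%), 4 (4.08%) and 7 (7.14%), against 6.35%, 6.27% and 6.97% of protein-coding genes and 5.32%, 5.22% and 5.77% of all genes.

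Fitting the experiment as a block raised these counts. With the block 8 members were higher in each pull-down, while 9 (ODD), 7 (EVEN) and 8 (LacZ) were lower. In the same fit 12.6%, 12.8% and 12.7% of all genes were higher in ODD, EVEN and LacZ, and 6.55%, 6.41% and 7.00% were lower. For protein-coding genes alone the shares were 3.72% to 5.24% higher and 7.76% to 8.52% lower, against 8.16% of members higher in each and 7.14% to 9.18% lower. The median log2 change of the members was -0.14 (ODD), -0.19 (EVEN) and -0.15 (LacZ), against -0.10, -0.07 and -0.11 for protein-coding genes and -0.03, -0.00 and -0.05 for all genes. Below, a gene is said to have risen or fallen in a pull-down only where it passed the test, and the fit with the experiment as a block is named where the call rests on it. Where 3 log2 changes or p-values of a gene or subfamily follow each other, they are those of ODD, EVEN and LacZ against Input in that order. An error after ± is the SE for a log2 change.

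**Figure D2:**
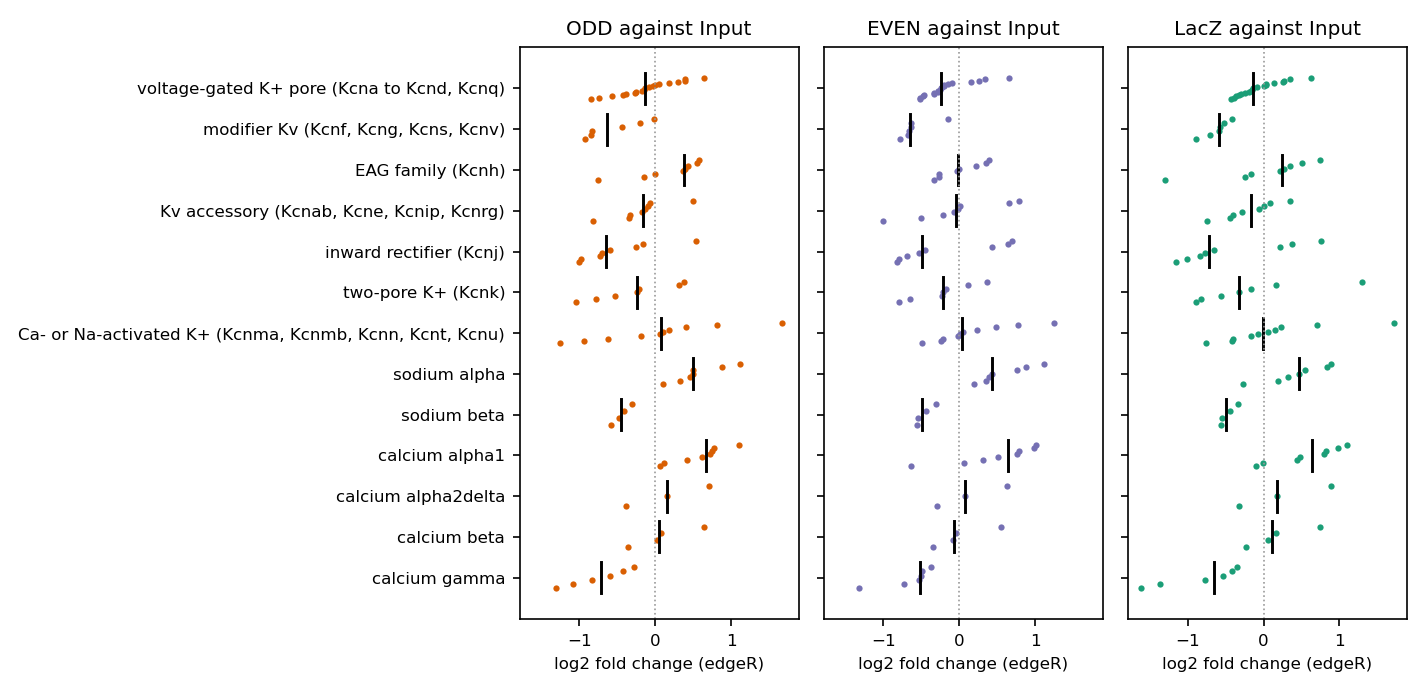
Log2 fold change over Input of the 98 tested channel genes in each pull-down (points, 1 per gene), by subfamily, with black bars at the subfamily medians and a dotted line at 0. All points of the calcium gamma and sodium beta subfamilies lie below 0 in the 3 panels, and most sodium alpha and calcium alpha1 points lie above it.

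The calcium gamma subfamily, most of it TARPs, was among the lowest of the subfamilies in the pull-downs. All 6 tested members were below Input in ODD, EVEN and LacZ, with medians of -0.72, -0.52 and -0.66 on the log2 scale. The summed level of the subfamily was 379 ± 4.82 CPM in Input (SD, n = 2) and 235 ± 22.1 (ODD), 242 ± 2.37 (EVEN) and 239 ± 8.26 (LacZ) in the pull-downs, without overlap. The ratio to the Input of the same experiment was 0.637 to 0.655 in experiment 1 and 0.584 to 0.639 in experiment 2. Of the 6 genes 1 passed without the block, and with it 3 (ODD), 2 (EVEN) and 3 (LacZ) fell. The median of the subfamily stayed below 0 in all 3 comparisons under each of the 19 settings tried.

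Cacng7, a TARP of AMPA receptors, showed the clearest fall. Its raw counts were 1736 and 1416 (Input), 242 and 270 (LacZ), 420 and 239 (ODD) and 378 and 270 (EVEN). Scaled to library size these were 71.5 and 68.97 CPM (Input), 31.2 and 23.5 (LacZ), 33.8 and 22.98 (ODD) and 31.98 and 24.3 (EVEN). Every pull-down library was thus at less than 50% of either Input library, and within each pull-down experiment 2 was the lower. The log2 change was -1.31 ± 0.26, -1.32 ± 0.26 and -1.36 ± 0.26, with adjusted p of 0.0279, 0.0314 and 0.0228 in edgeR's quasi-likelihood test. The call was lost in each comparison when either Input library was left out, in EVEN and LacZ also without either pull-down library, and in ODD without ODD of experiment 2, with log2 changes between -1.62 and -1.06 throughout.

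Cacng4, the most abundant channel gene, was at 276 and 262 CPM (Input), 191 and 179 (LacZ), 189 and 167 (ODD) and 183 and 187 (EVEN). All 6 pull-down libraries lay below both Input libraries. The log2 change was -0.59 ± 0.15, -0.54 ± 0.15 and -0.54 ± 0.15, with adjusted p of 0.0668, 0.0969 and 0.08603, and with the block it fell in all 3 (adjusted p = 0.0108, 0.0171 and 0.0154). Cacng3, a TARP of the forebrain, was at low levels of 3.96 and 6.43 CPM (Input), 1.42 and 1.91 (LacZ), 2.57 and 2.31 (ODD) and 2.96 and 4.31 (EVEN). It fell with the block in ODD and LacZ (adjusted p = 0.0343 and 0.008701) and did not pass in EVEN (0.208). The TARPs Cacng5 and Cacng8, named here because all their pull-down libraries also lay below both Input libraries, had log2 changes of -0.84, -0.73 and -0.78 and of -0.43, -0.49 and -0.41 and did not pass. Cacng2, the founding TARP known as stargazin, was chosen after its values were seen, to complete the subfamily, and had changes of -0.28, -0.37 and -0.35.

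The sodium channel beta subunits, short membrane proteins that bind the alpha pores, were also below Input. All 4 had negative log2 changes in the 3 comparisons, with medians of -0.45, -0.49 and -0.50. Scn3b was at 80.3 and 96.8 CPM (Input), 52.7 and 77.6 (LacZ), 56.1 and 76.9 (ODD) and 52.7 and 78.3 (EVEN). Each pull-down library was below its own Input, and experiment 2 was the higher in every group. The log2 change was -0.41 ± 0.29, -0.44 ± 0.29 and -0.44 ± 0.29, with adjusted p of 0.5403, 0.497 and 0.506. With the block Scn3b fell in all 3 (adjusted p = 0.0458, 0.0368 and 0.0344), and the other 3 subunits passed in none.

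Most pore-forming subunits of sodium and calcium channels had positive log2 changes. Of the 15 tested alpha and alpha1 genes, 15 (ODD), 14 (EVEN) and 12 (LacZ) were above 0, with median log2 changes of 0.50, 0.51 and 0.48. For the 10 tested sodium beta and calcium gamma genes, 0 were above 0 in each, with medians of -0.53, -0.52 and -0.54. The other accessory subunits of calcium channels were not all lower, since 3 (ODD), 1 (EVEN) and 3 (LacZ) of 4 calcium beta genes and 2 of 3 alpha2delta genes in each were above 0. Of the 66 tested Kcn genes 21, 21 and 26 were above 0. For comparison, 5206 (ODD), 5706 (EVEN) and 4919 (LacZ) of 13455 tested protein-coding genes were above 0. Of all 16524 genes tested, 7775, 8243 and 7511 were. The subfamilies follow the gene names, but setting these pairs of subfamilies against each other was chosen after their values were seen. Counts taken from 1 comparison to the next are not independent, because the Input libraries are the same.

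The summed excess of the pores over Input was seen mainly in experiment 2. Summed over the sodium alpha genes, the pull-downs held 1.0003 to 1.03 times the CPM of Input in experiment 1 and 1.51 to 1.67 times in experiment 2. For the calcium alpha1 genes the ratios were 1.05 to 1.11 and 1.59 to 1.77. Taken by gene, the calcium alpha1 median log2 ratio was 0.26, 0.32 and 0.33 in experiment 1 and 0.90, 0.78 and 0.85 in experiment 2. In experiment 1, 6 (ODD), 6 (EVEN) and 5 (LacZ) of the 8 tested calcium alpha1 genes were above Input. The sodium alpha medians were -0.05, 0.12 and -0.03 in experiment 1 and 0.66, 0.74 and 0.62 in experiment 2. The gamma genes, by contrast, had ratios well below 1 in both experiments, as the plot of subfamily sums shows. The difference between experiments was not tested, since each holds 1 library of each kind. Left without 1 library, the median log2 change of the sodium alpha genes ranged down to -0.21 in ODD and -0.32 in LacZ, and that of the calcium alpha1 genes down to -0.05 in LacZ.

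**Figure D3:**
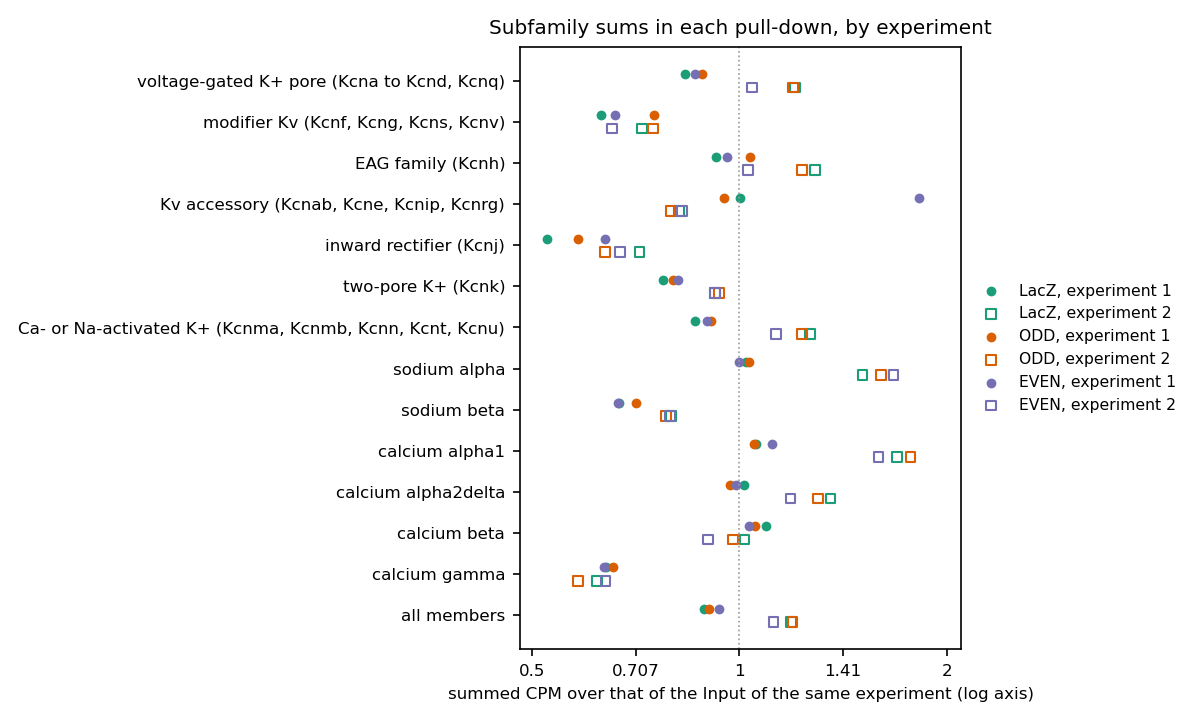
Summed CPM of each subfamily in a pull-down over that in the Input of the same experiment, on a log axis (filled circles, experiment 1; open squares, experiment 2; green LacZ, orange ODD, purple EVEN), with a dotted line at 1. Sodium alpha and calcium alpha1 sums lie near 1 in experiment 1 and well above 1 in experiment 2, while calcium gamma sums lie well below 1 in both.

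Cacna1c, an L-type pore that couples activity to gene expression (chr6:118587240-119196418, minus strand, a span of 609 kb), was at 36.01 and 26.4 CPM (Input), 53.6 and 57.3 (LacZ), 50.5 and 52.4 (ODD) and 50.9 and 55.1 (EVEN). The 6 pull-down libraries lay together above both Input libraries, in both experiments. The log2 change was 0.72 ± 0.19, 0.76 ± 0.19 and 0.83 ± 0.19, with adjusted p of 0.07598, 0.0678 and 0.0446, so that the rise passed in LacZ. Neither ODD nor EVEN passed against LacZ in this gene (adjusted p = 0.99999 and 1.0000). With the block it rose in all 3 (adjusted p = 0.0203, 0.0172 and 0.0116), and without any single one of the 8 libraries the LacZ call was lost. The other L-type pore, Cacna1d, was at 9.27 and 6.58 CPM (Input), 17.5 and 13.9 (LacZ), 12.7 and 14.5 (ODD) and 17.3 and 14.6 (EVEN), again with all pull-downs above Input, and rose in all 3 with the block (adjusted p = 0.0279, 0.0116 and 0.0118).

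Cacna1a, the P/Q-type pore of the motor nerve terminal, was at 55.6 and 68.4 CPM (Input), 92.9 and 123 (LacZ), 86.6 and 122 (ODD) and 96.4 and 118 (EVEN). Both experiments showed pull-downs above Input. It rose in all 3 with the block (log2 changes of 0.75, 0.79 and 0.80, adjusted p = 0.00439, 0.00404 and 0.00323) and in none without it (0.146, 0.135 and 0.119). Cacna1e, the R-type pore whose GAA-rich stretch is shown above, was at 27.1 and 76.96 CPM (Input), 40.9 and 182 (LacZ), 39.7 and 185 (ODD) and 43.3 and 162 (EVEN). Here the experiments lay further apart than the groups, and the pull-downs were above Input within each. It rose in all 3 with the block (adjusted p = 0.0128, 0.0161 and 0.0121), with log2 changes of 1.11 ± 1.03, 0.98 ± 1.03 and 1.10 ± 1.03 and adjusted p of 0.673, 0.699 and 0.673 without it.

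The N-type pore Cacna1b, at 78.8 and 80.7 CPM (Input), 75.9 and 147 (LacZ), 84.1 and 160 (ODD) and 87.7 and 140 (EVEN), was above its Input mainly in experiment 2 and did not pass with or without the block. The T-type pore Cacna1h behaved alike, at 96.6 and 135 CPM (Input), 103 and 212 (LacZ), 101 and 209 (ODD) and 105 and 184 (EVEN). Cacna1g, the most abundant calcium channel pore, was at 246 and 160 CPM (Input), 198 and 206 (LacZ), 201 and 238 (ODD) and 212 and 211 (EVEN), below Input in experiment 1 and above it in experiment 2, and had log2 changes of 0.12, 0.06 and -0.01. None of these passed the test in any fit without or with the block.

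Among the sodium channel pores, Scn1a was at 6.96 and 7.598 CPM (Input), 8.51 and 17.3 (LacZ), 11.6 and 20.1 (ODD) and 11.9 and 19.8 (EVEN). All pull-downs lay above both Input libraries. It rose with the block in ODD and EVEN (adjusted p = 0.0158 and 0.0162) and did not pass in LacZ (0.0565), while neither ODD nor EVEN passed against LacZ (adjusted p = 0.99999 and 1.0000). Scn8a, at 57.6 and 48.1 CPM (Input), 72.3 and 82.8 (LacZ), 68.5 and 80.8 (ODD) and 68.95 and 69.9 (EVEN), was likewise above both Input libraries throughout and rose with the block in LacZ (adjusted p = 0.0366), with 0.0536 in ODD and 0.103 in EVEN. The difference between the probe sets was not shown, as ODD and EVEN against LacZ gave adjusted p of 0.99999 and 1.0000.

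The abundant pores Scn2a and Scn3a split by experiment. Scn2a was at 42.7 and 48.5 CPM (Input), 35.5 and 68.5 (LacZ), 39.6 and 85.6 (ODD) and 35.1 and 81.4 (EVEN), below Input in each pull-down of experiment 1 and above it in each of experiment 2. Scn3a was at 87.01 and 128 CPM (Input), 85.5 and 184 (LacZ), 83.8 and 187 (ODD) and 77.5 and 214 (EVEN), with the same split. Scn9a, at 9.02 and 25.9 CPM (Input), 7.99 and 40.04 (LacZ), 8.29 and 41.3 (ODD) and 9.81 and 49.2 (EVEN), was above Input in experiment 2 and near it in experiment 1. None of the 3 passed in any comparison with Input, with or without the block.

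**Figure D4:**
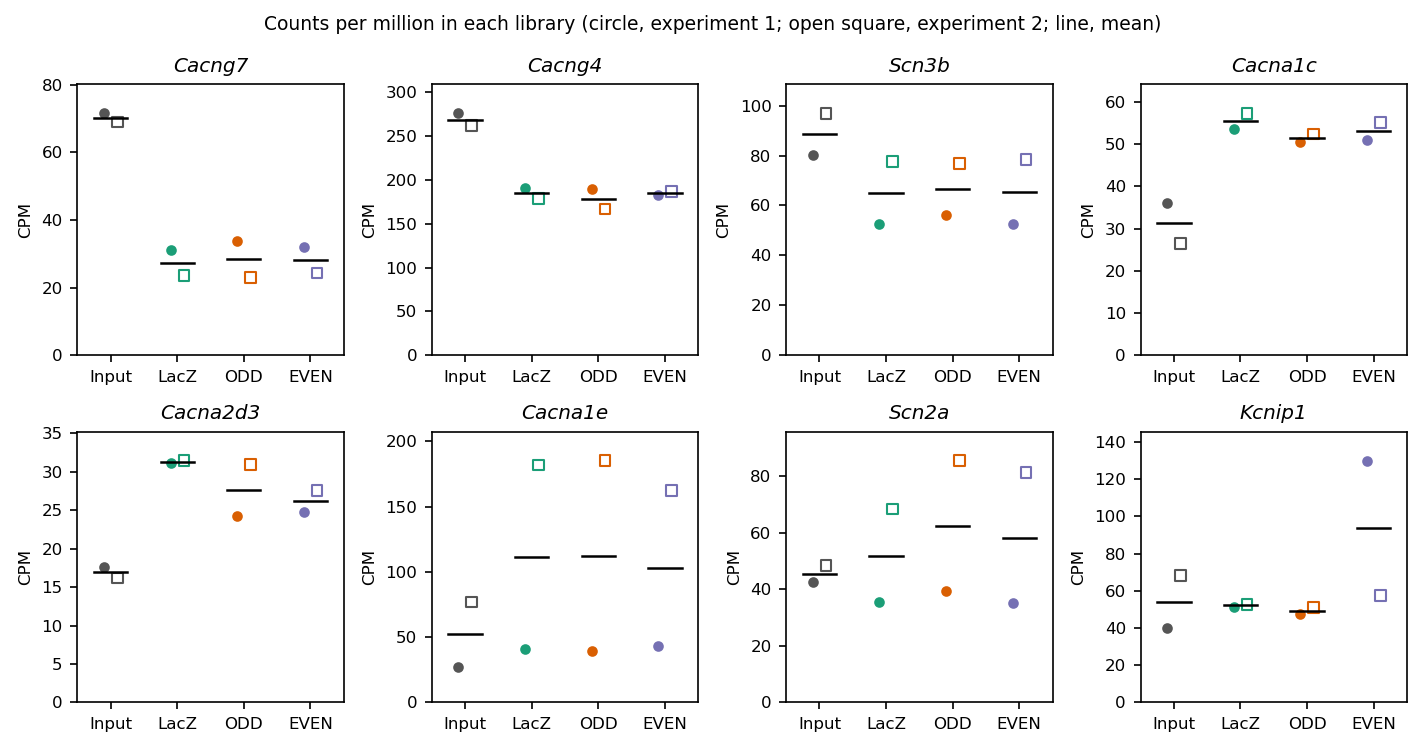
CPM of 8 channel genes in each library (filled circles, experiment 1; open squares, experiment 2) with the mean of each group as a line, from 0 upward. Cacng7 and Cacng4 are below Input in all pull-downs, Cacna1c and Cacna2d3 are above it, Scn2a goes opposite ways in the 2 experiments, and Kcnip1 stands apart in EVEN of experiment 1.

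Of the alpha2delta and beta subunits of calcium channels, which bring the pore to the membrane, 1 of each kind rose. Cacna2d3, an alpha2delta subunit with a span of 817 kb (chr14:28904943-29721864, minus strand), was at 17.6 and 16.2 CPM (Input), 31.1 and 31.4 (LacZ), 24.3 and 30.96 (ODD) and 24.8 and 27.6 (EVEN). Pull-downs and Input did not overlap. The log2 change was 0.71 ± 0.19, 0.63 ± 0.19 and 0.89 ± 0.19, and the rise passed in LacZ (adjusted p = 0.07797, 0.116 and 0.0339) and in all 3 with the block (0.01803, 0.0282 and 0.00706). Without any single one of the 8 libraries the LacZ call was lost here too, with adjusted p of 0.05003 to 0.177. Its relatives Cacna2d1 and Cacna2d2 had changes of 0.16, 0.07 and 0.17 and of -0.38, -0.29 and -0.32 and did not pass. Cacnb2, a beta subunit named because it rose with the block in all 3 (adjusted p = 0.0101, 0.0195 and 0.00554), was at 24.4 and 32.3 CPM (Input), 41.3 and 53.9 (LacZ), 39.7 and 48.7 (ODD) and 39.004 and 43.6 (EVEN). Cacnb3, the most abundant beta subunit, had changes of 0.08, -0.04 and 0.05 and did not pass.

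The voltage-gated potassium channel pores, of which 19 were tested, had median log2 changes of -0.14, -0.25 and -0.14. Their sum was 0.833 to 0.882 times that of Input in experiment 1 and 1.04 to 1.205 times in experiment 2. The M-current pore Kcnq3 was at 19.9 and 37.02 CPM (Input), 22.4 and 64.7 (LacZ), 24.5 and 64.1 (ODD) and 21.4 and 50.3 (EVEN), with a wider gap between experiments than between groups.

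Among other pores of the subfamily, Kcnd3 had log2 changes of 0.05, -0.25 and -0.16 and Kcnd2 of -0.14, -0.29 and -0.14. Kcnb2 had -0.03, -0.10 and 0.03 and Kcnc1 -0.17, -0.20 and -0.24. In the Kcna group the changes were -0.27, -0.27 and 0.25 for Kcna1, -0.39, -0.15 and -0.09 for Kcna2 and -0.42, -0.48 and -0.43 for Kcna6, and Kcnq5 had -0.15, -0.21 and -0.36. None of these passed in any fit.

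The modifier subunits, which form no channel alone, were below Input in all 6 tested members in each pull-down, with medians of -0.63, -0.65 and -0.58, and 0 passed with or without the block. Their leading gene Kcnv1 was at 8.86 and 5.94 CPM (Input), 5.54 and 4.35 (LacZ), 5.39 and 5.58 (ODD) and 5.84 and 3.68 (EVEN), so that all pull-downs were below both Input libraries. In the EAG family the medians were 0.37, -0.02 and 0.24 and 0 of 8 passed. Kcnh7, which holds the 20 nt run complementary to Lhx1os shown above, was at 10.8 and 14.3 CPM (Input), 11.99 and 29.8 (LacZ), 12.5 and 24.9 (ODD) and 12.2 and 20.7 (EVEN). In experiment 1 the 3 pull-downs lay within 1 CPM of each other, and in experiment 2 both Lhx1os probe sets gave less than the LacZ probes. The ERG pore Kcnh2 had log2 changes of -0.15, -0.26 and -0.16.

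Kcnip1 had 1 library far from the others. Its level was 39.96 and 68.4 CPM (Input), 51.6 and 52.7 (LacZ), 47.4 and 51.05 (ODD) and 130 and 57.3 (EVEN), and EVEN of experiment 1 was thus above every other library, while the other pull-downs lay between the 2 Input libraries. The log2 change of EVEN was 0.79 against Input and 0.84 against LacZ (adjusted p = 0.356 and 1.0000). Without that library they were 0.08 and 0.14. The same library gave the accessory subunits as a group a sum of 1.82 times Input, against 0.95 in ODD and 1.00 in LacZ of that experiment. In the longest annotated Kcnip1 transcript the longest run shared with Lhx1os was 11 nt on the same strand and 10 nt complementary, both at or below the medians of 11 over all protein-coding genes. Kcnip4, a relative of Kcnip1 with a span of 1135 kb, was at 0.659 and 2.14 CPM (Input), 0.387 and 1.57 (LacZ), 0.724 and 1.92 (ODD) and 0.423 and 1.98 (EVEN) and did not pass. Kcne1l, a single-pass subunit named for its calls, was at 12.6 and 5.796 CPM (Input), 7.99 and 3.13 (LacZ), 6.999 and 3.46 (ODD) and 6.77 and 2.43 (EVEN) and fell with the block in all 3 (adjusted p = 0.0267, 0.0119 and 0.0343).

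Inward rectifiers were below Input in their sum, but not in every gene. Of the 8 tested, 1 (ODD), 3 (EVEN) and 3 (LacZ) had log2 changes above 0. Their summed level was 48.7 ± 1.86 CPM in Input (SD, n = 2) and 29.7 ± 0.763 (ODD), 31.9 ± 0.0571 (EVEN) and 30.1 ± 5.41 (LacZ) in the pull-downs, without overlap, and the medians were -0.65, -0.49 and -0.71. Kcnj2 was at 10.8 and 21.8 CPM (Input), 6.57 and 13.9 (LacZ), 4.91 and 11.7 (ODD) and 6.94 and 11.5 (EVEN), below its own Input in every pull-down, and fell with the block in all 3 (adjusted p = 0.00775, 0.0199 and 0.0339). Kcnj3, a G-protein-gated rectifier, was at 3.296 and 3.02 CPM (Input), 1.03 and 1.74 (LacZ), 1.85 and 2.02 (ODD) and 2.79 and 1.798 (EVEN), below both Input libraries throughout, and did not pass. With the block Kcnj11, the pore of the ATP-sensitive channel, fell in ODD and LacZ (adjusted p = 0.0412 and 0.0132) and Kcnj10, a rectifier of glia, fell in EVEN (0.0415). Both were named for these calls. Kcnj12, with the longest same-strand run, was at 2.88 and 1.75 CPM (Input), 1.29 and 1.31 (LacZ), 1.61 and 0.673 (ODD) and 1.44 and 1.44 (EVEN), lower in all pull-downs than in both Input libraries, with changes of -1.002, -0.69 and -0.84.

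Among two-pore channels, the acid-sensitive Kcnk3 fell with the block in all 3 pull-downs (adjusted p = 0.0462, 0.0394 and 0.0352) and was named for it. Its levels were 7.37 and 9.99 CPM (Input), 3.22 and 6.44 (LacZ), 4.59 and 5.48 (ODD) and 3.81 and 6.201 (EVEN), with no overlap between pull-downs and Input. Kcnk2, the most abundant, had log2 changes of -0.21, -0.22 and -0.32, and Kcnk9, a second acid-sensitive channel, of 0.31, 0.11 and 0.16. Neither passed. Of the potassium channels opened by calcium or sodium, the sodium-activated Kcnt1 rose with the block in all 3 (adjusted p = 0.00198, 0.00716 and 0.00162). It was at 1.94 and 3.65 CPM (Input), 6.57 and 11.8 (LacZ), 5.15 and 12.7 (ODD) and 4.3996 and 8.898 (EVEN), and its log2 changes of 1.67 ± 0.60, 1.25 ± 0.60 and 1.72 ± 0.60 were the largest upward in ODD, EVEN and LacZ among the 98 tested members.

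All 6 pull-down libraries of Kcnt1 lay above both Input libraries. Its relative Kcnt2 was at 4.82 and 6.87 CPM (Input), 6.06 and 12.9 (LacZ), 5.39 and 15.2 (ODD) and 7.28 and 12.8 (EVEN), with changes of 0.81, 0.78 and 0.71, and did not pass. The large-conductance channel Kcnma1 had changes of 0.10, -0.02 and 0.05, and the small-conductance channels Kcnn2 and Kcnn3 of 0.40, 0.48 and 0.15 and of -0.19, -0.24 and -0.16. None of these 3 passed in any fit.

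Counted by library instead of by test, 11 of the 98 members had all 6 pull-down libraries above both Input libraries, where 17.7% of all genes and 8.65% of protein-coding genes did. Among them were 5 calcium channel genes (Cacna1a, Cacna1c, Cacna1d, Cacna2d3 and Cacnb2), the sodium channel pores Scn1a, Scn7a and Scn8a, and the potassium channel genes Kcnk12 and Kcnt1. Below both Input libraries in all 6 were 14 members, against 13.5% of all genes and 16.2% of protein-coding genes. These were 4 TARPs, Scn2b, Scn3b and 8 potassium channel genes. The members' shares of 11.2% and 14.3% were near those of protein-coding genes.

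No channel gene passed the test when the probes for Lhx1os were set against the LacZ probes. With edgeR 0 of 98 members passed in ODD against LacZ, EVEN against LacZ, their mean against LacZ, or ODD against EVEN, where 0% of all genes did. The target Lhx1os itself did not pass in the mean against LacZ, at a log2 difference of 5.42 (edgeR, adjusted p = 0.9999, also with the block). A count of 0 in this test therefore cannot show that the members did not differ. At an unadjusted p under 0.05 there were 0, 1, 0 and 0 members, and with the block 2, 2, 2 and 3. DESeq2, which kept 127 members, gave 0, 1, 0 and 1. Shares of all genes at this threshold were not counted for these comparisons, so these counts are not read as a result about the members. The 4 members with the smallest p when both Lhx1os probe sets were averaged and set against LacZ are given to show the size of the remaining differences. Kcnk12, a two-pore channel, was at 0.371 and 0.438 CPM (Input), 1.16 and 0.8704 (LacZ), 0.483 and 0.577 (ODD) and 0.592 and 0.449 (EVEN), highest in LacZ, with a log2 difference of -0.92. Cacng3 had a difference of 0.82, Kcnj3 of 0.58 and Kcnh6, an ERG relative, of 0.75, and in edgeR's test the adjusted p of all 4 was 0.9999. With 1 library left out, the difference of Kcnj3 ranged from 0.28 without LacZ of experiment 1 to 1.02 without LacZ of experiment 2, and that of Kcnh6 from 0.47 without LacZ of experiment 2 to 1.03 without LacZ of experiment 1. None of them exceeded 1.91 CPM in a LacZ library, so these differences rest on few reads. Why no gene passed in these comparisons was not tested.

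Channel genes often stood higher in experiment 2 than in experiment 1. In 30 of the 98 members (30.6%) all 4 libraries of experiment 2 were above all 4 of experiment 1, where 12.7% of all genes and 14.5% of protein-coding genes had this order. The reverse order was seen in 8 members (8.16%), against 10.6% of all genes and 12.3% of protein-coding genes. These are descriptions, since the 4 libraries of an experiment are not independent of each other and there are 2 experiments.

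Among the genes higher in experiment 2 were Kcnk9, Cacna1e, Scn9a and Kcnh1, an EAG pore. The ratio of CPM in experiment 2 over experiment 1 ranged over the 4 groups from 3.37 to 7.15 for Kcnk9, from 2.84 to 4.67 for Cacna1e, from 2.87 to 5.01 for Scn9a and from 3.49 to 4.55 for Kcnh1. In Kcnk9, Cacna1e and Scn9a the ratio was smallest in Input. The genes higher in experiment 1 included Kcna2, Kcnn3, Kcnj10 and Kcne1l, with ratios of experiment 1 over experiment 2 of 2.14 to 3.29, 1.76 to 3.02, 1.64 to 2.79 and 2.02 to 2.79. The remaining 4 were Kcna6, Kcnc1, Kcnip2 and Kcnk2. These genes were chosen after their values were seen.

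Markers of other cell types differed between the experiments in the same libraries. All 3 oligodendrocyte markers exceeded 1 FPKM in Input, and their sum was 133 and 24.6 FPKM in Input of experiments 1 and 2, 91.4 and 17.97 (LacZ), 91.2 and 16.5 (ODD) and 90.3 and 16.9 (EVEN) in the pull-downs. The sum of the 4 neural progenitor markers was 429 and 278 in Input, and that of the 5 pan-neuronal markers was 365 and 517. The 7 motor neuron markers summed to 60.1 and 111. The part of these cell types in the channel differences between experiments was not tested.

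Members with long genes stood higher in the pull-downs. Across the 98 tested members, the mean log2 change over the 3 pull-downs had a Spearman rho of 0.49 (Pearson r = 0.45) with the span of the gene and of 0.57 (r = 0.58) with the deposited exon length. For 13352 other protein-coding genes rho was 0.12 and 0.20. Genes are not independent replicates and share their libraries, so these are descriptions. Of members spanning 300 kb or more, 14 of 18 (77.8%) had a mean above 0, against 55.8% of 502 other protein-coding genes. Under 20 kb it was 6 of 24 (25%, against 35.3%), from 20 to 100 kb 9 of 34 (26.5%, against 40.7%), and from 100 to 300 kb 11 of 22 (50%, against 45.3%). Median spans were 147 kb for the tested sodium alpha and 206 kb for calcium alpha1 genes, 14.0 kb for sodium beta and 51.3 kb for calcium gamma, and 135 kb for calcium beta and 440 kb for alpha2delta genes. Between the sodium alpha and calcium alpha1 genes on one side and the sodium beta and calcium gamma genes on the other, subfamily and length therefore cannot be told apart.

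**Figure D5:**
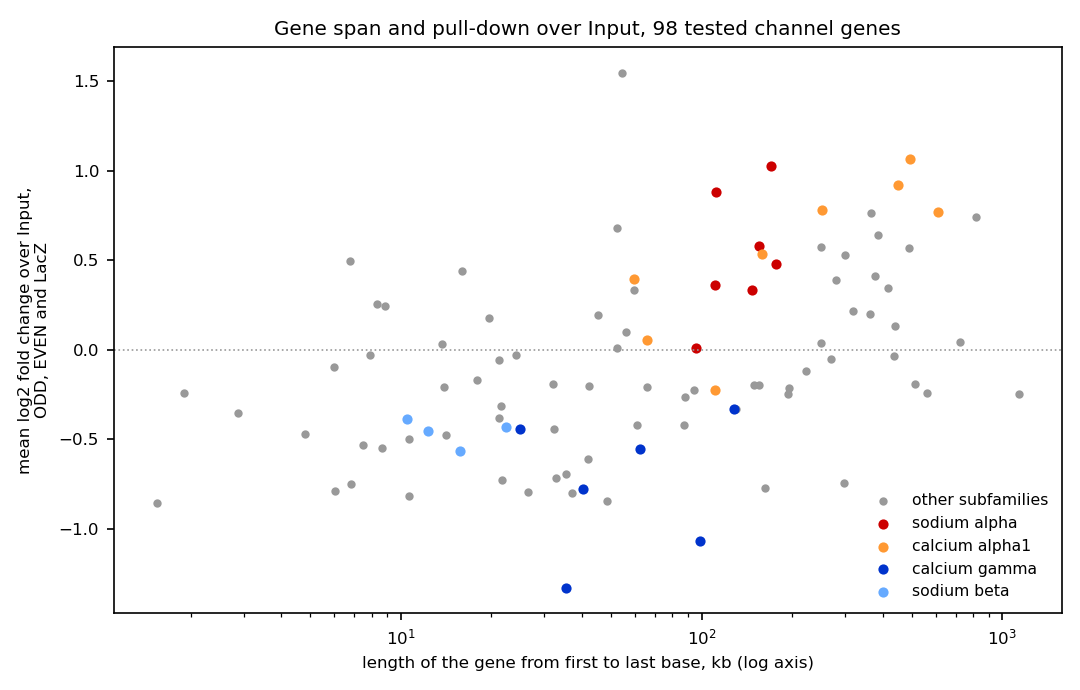
Mean log2 fold change over Input of ODD, EVEN and LacZ against the span of the gene in kb (log axis) for the 98 tested channel genes, with 4 subfamilies in colour and the others in grey. Sodium alpha and calcium alpha1 genes (red, orange) are mostly long and above 0, sodium beta and calcium gamma genes (light and dark blue) shorter and below 0.

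Base composition and simple sequence followed the change less closely. Spearman's rho with the GC content of the longest transcript was -0.23 for members and -0.18 for other protein-coding genes. With the low-complexity share of that transcript it was -0.10 and -0.11. Among the 6 members with over 9% of low-complexity sequence were Cacng8 (27.0%), Cacng2 (15.3%), Cacng7 (12.7%), Cacng4 (9.06%) and Kcnk3 (9.03%), and these 5 had negative log2 changes in the 3 pull-downs. Of the genes whose repetitive stretches are shown above, Cacna1e had positive changes and Cacng8 negative ones in ODD, EVEN and LacZ. The rho with the longest complementary run to Lhx1os was 0.15 for members and 0.05 for other genes, and with the longest same-strand run -0.01 and 0.05. Neither Kcnh7 nor Kcnj12 passed against Input or LacZ. No gene passed against LacZ, Lhx1os included, so the outcome there cannot show whether the shared runs matter.

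Genes that work with these channels were counted in the same fits. The list held 36 genes, among them the pacemaker channel Hcn4, the leak channel Nalcn with its subunits Unc79 and Unc80, ankyrins, fibroblast growth factor homologous factors, the A-type partners Dpp6 and Dpp10, and ryanodine receptors, of which 35 were tested. In each of ODD, EVEN and LacZ against Input 0 passed, and their median log2 changes were 0.03, -0.03 and 0.12. With the block 3 rose and 2 fell (ODD), 6 and 2 (EVEN), and 4 and 1 (LacZ). These were 8.57%, 17.1% and 11.4% higher, against 12.6%, 12.8% and 12.7% of all genes, and 5.71%, 5.71% and 2.86% lower, against 6.55%, 6.41% and 7.00%. Of protein-coding genes alone, 4.23%, 5.24% and 3.72% were higher and 7.95%, 7.76% and 8.52% lower in the same fit. The partners' shares higher were above those, but above the share of all genes in EVEN only. They rest on 3, 6 and 4 genes of a chosen list and are not read as a result about the partners. Ryr2 and Ryr3, which release calcium from internal stores, rose in all 3, with log2 changes of 1.88, 1.78 and 1.19 for Ryr3 (adjusted p with the block = 0.00316, 0.00582 and 0.0269) and 1.14, 1.21 and 1.11 for Ryr2. The chloride channel Clcn2 also rose in all 3 (adjusted p = 0.00605, 0.00615 and 0.00521), and Hcn4 fell in all 3 (0.02803, 0.0135 and 0.0248).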

How the data were processed

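RNA was extracted from the cultures and made into libraries with a stranded kit after ribosomal depletion, as the labels' protocols state. The authors deposited raw counts for each Ensembl gene and, in a second table, FPKM values, with gene lengths, per the file headers. The FPKM values equalled the count over length and column total to a relative difference of 6.66e-14. The submitters' processing notes name cutadapt 3.2, Bowtie2 2.4.2, Picard, HTSeq 0.13.5 and GRCm38. Annotation and strand setting: not given in the sources used here. In all, 36 members overlap an exon of a gene on the opposite strand, among them Cacna1a, Cacna1d, Cacnb2, Kcnh7 and Kcnma1, so their counts could hold reads of that gene.

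Counts of all 8 libraries were fitted with edgeR 4.0.16 (quasi-likelihood, TMM, default filter, group as the only term), with 16524 genes left after the filter and p-values adjusted with Benjamini-Hochberg over all of them. CPM used TMM-scaled library sizes. Coordinates, lengths and transcripts came from GENCODE M21, which held 55230 of 55471 identifiers. Low complexity was called with dustmasker (BLAST+ 2.17.0), and shared runs of at least 10 nt were searched. Total counts set the precision, and intervals from counts alone would cover counting error only. SE and p-values of the main fit rest on the spread between the 2 libraries of each group, pooled over the groups. With the block they rest on the spread left after the difference between experiments is removed. Same-numbered libraries deviated together (r from 0.517 to 0.719 over 6 pairs of groups), and the labels give the number as a batch, so the numbers pair the libraries. Replicates were not duplicates (chi-square per degree of freedom 31.5 to 61.5). On simulated counts of 16524 genes with 200 changed, 167 were recovered in ODD against Input with 15 false calls. The changes set were 2 on the log2 scale in either direction, outside the least abundant genes. Libraries were drawn without an experiment effect. For smaller changes, or for libraries that deviate together as here, the share recovered was not measured.

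Named genes were the leading member of each subfamily, each member called against Input, the 4 smallest p-values for both Lhx1os probe sets against LacZ, and a list of channels known from motor neurons; members with at most 1 count were counted and up to 5 named. Genes called with the block, and others where stated, were named after their values were seen. The members and lists were chosen with earlier results of these data known. Some genes that the rule would name, and some sequences, are not reported here. Noncoding RNAs whose names begin with Kcn were left out of the members. Alternatives are named in the closing section.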

Additional observations from a re-analysis of the deposited data

Results flagged for a closer look

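Kcna1 was below Input with ODD probes and above it with LacZ probes in experiment 1, while in experiment 2 ODD was level with Input. Its log2 ratio to the Input of the same experiment was -0.59 and -0.00 in ODD and 0.42 and 0.06 in LacZ, a difference of means of -0.53. The gene was at a few CPM, and this difference was not tested beyond the fit, where it did not pass (adjusted p = 0.99999).

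For 13 named members all 3 pull-downs lay on one side of Input in experiment 1 and on the other side in experiment 2. The difference of the mean log2 ratios, experiment 2 minus experiment 1, was 0.90 for Scn2a, 0.84 for Kcnk9, 0.71 for Cacna1g, 0.68 for Scn3a, 0.59 for Kcnn3, 0.56 for Kcna2, 0.55 for Kcnq5, 0.47 for Kcnc1, 0.44 for Kcnma1, 0.40 for Kcnb2 and 0.32 for Cacna2d1, all of them higher in experiment 2. It was -0.22 for Cacnb3 and -1.11 for Kcnip1, which was -0.65 without EVEN of experiment 1. The 3 pull-downs of an experiment share 1 Input library, so that library alone can place them on one side, and these differences were not tested.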

How the results depend on the processing

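Calls depended on the fit. Shares of all genes called are given above for the main fit and the fit with the block only. The counts under the other settings stand without such a share and describe the members' calls alone. With the replicate block, which uses the pairing of libraries by experiment, 8 members were higher in each of ODD, EVEN and LacZ, and 9, 7 and 8 lower. After each library's GC trend was removed under the replicate block, 7 were higher in each and 14, 10 and 13 lower. Recentred on the median of all genes, a setting added after seeing the data because the removal moved that median by over 0.1, 10, 9 and 9 were higher and 8 in ODD, 8 in EVEN and 9 in LacZ lower. The block changed no call in the comparisons between pull-downs. With no filter beyond 1 count 2 were higher in ODD, 2 in EVEN and 2 lower in LacZ. With only the groups compared, 0 were lower in ODD and 0 higher in LacZ. RLE size factors gave 1 higher and 2 lower in LacZ. DESeq2 gave 2 lower in ODD, 1 higher and 2 lower in EVEN, and 3 lower in LacZ. Limma gave 0 higher in LacZ on log2(FPKM + 1) and 1 on log2(FPKM + 0.1). Leaving out 1 library at a time gave 0 to 1 lower in each comparison and 0 to 0 higher. The median log2 change of the members was -0.022 in ODD and -0.049 in EVEN with a filter of 50 counts in 2 libraries, and without 1 library it ranged from -0.24 to 0.0024, from -0.29 to -0.0010 and from -0.35 to -0.0041 in ODD, EVEN and LacZ. For Cacng7, Cacna1c and Cacna2d3, the genes called without the block, no direction reversed under these settings. The cause of these differences was not tested. Since pull-downs held at most 12563449 counts, genes near 1 CPM rest on few reads.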

Other observations

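Of 5 noncoding RNAs named after potassium channel genes, Kcnq1ot1, the imprinted antisense RNA of the Kcnq1 locus (chr7:143203458-143296549), had higher values in all pull-downs. It was at 51.3 and 121 CPM (Input), 915 and 1106 (LacZ), 851 and 1017 (ODD) and 902 and 722 (EVEN), with log2 changes over Input of 3.44, 3.24 and 3.55 in ODD, EVEN and LacZ (edgeR, adjusted p = 0.00580, 0.00855 and 0.00476), and -0.21 for both Lhx1os probe sets against LacZ. It was chosen after its values were seen. The channel gene Kcnq1, which holds it on the opposite strand, had at most 1 count in any library. Kcnmb4os2 was at 1.11 and 2.19 CPM (Input), 1.42 and 2.18 (LacZ), 2.25 and 1.73 (ODD) and 1.69 and 1.71 (EVEN) and did not pass, and the other 3 did not reach the count needed for a test.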
